A study of Mus musculus with 4 samples.

Results

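The miRNA cluster described here comprises miR-106b, miR-93 and miR-25, whose hairpins lie together in an intron of Mcm7. Its rows were taken from the deposited table by mature miRNA identifier, and the other arm of each hairpin was added by position, which gave 6 rows of 2110. All 6 rows carried names in the RefSeq annotation that matched their identifiers. The table holds small-RNA read counts from extracellular vesicles released by C2C12, an established mouse myoblast cell line, and the series title places it in work on vesicles from wasting muscle and tumour growth. All 4 libraries carry the genotype label WT. In the 2 damaged libraries the cells had been treated with hydrogen peroxide, an oxidant, and in the 2 control libraries the treatment label is WT. Both groups were cultured with 10% bovine serum, and differential centrifugation was used to isolate the vesicles. The dose and duration of the peroxide treatment, and whether the serum had been cleared of its own vesicles, are not stated in the labels. Nor do the labels say whether the replicates are separate cultures, and the p-values therefore measure the spread between these libraries, which may be technical.

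miRNAs are short RNAs cut from a hairpin precursor. Each hairpin can yield a product from either arm (5p and 3p), and pairing of the seed, bases 2 to 8 of the mature miRNA, with a messenger RNA lowers that messenger's output. The cluster is transcribed with its host gene Mcm7, which encodes a subunit of the helicase that unwinds DNA at replication origins, and E2F factors, which switch on genes of DNA synthesis, are known activators of this locus. miR-106b and miR-93 belong to the miR-17 seed family, whose known targets include the cell-cycle inhibitor Cdkn1a. miR-25 belongs to the miR-92 seed family, whose known targets include the pro-apoptotic gene Bcl2l11.

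The mature sequences are shown because they set which other rows can be read as close relatives of the cluster. Each is written 5′ to 3′ as RefSeq gives it for GRCm38.p6, with the seed in capitals.
miR-106b-5p: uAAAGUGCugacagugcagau
miR-93-5p: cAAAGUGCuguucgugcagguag
miR-17-5p: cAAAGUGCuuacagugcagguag
miR-20a-5p: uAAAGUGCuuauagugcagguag
miR-25-3p: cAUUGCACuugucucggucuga
miR-92a-3p: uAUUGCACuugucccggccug
miR-92b-3p: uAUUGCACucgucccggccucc
miR-32-5p: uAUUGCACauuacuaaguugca
miR-106b-5p and miR-93-5p have the same seed and are identical at 16 of 21 aligned positions counted from the 5′ end. miR-25-3p has a different seed, shared with miR-92a-3p, to which it is identical at 18 of 21 positions. The remaining arms of the 3 hairpins carry seeds of their own.
miR-106b-3p: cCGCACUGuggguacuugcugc
miR-93-3p: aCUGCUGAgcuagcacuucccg
miR-25-5p: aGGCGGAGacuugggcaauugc

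The 3 hairpins lie on the minus strand of chromosome 5 (mm10, the build of the deposited table). Mir106b spans 138165737 to 138165818, Mir93 138165523 to 138165610 and Mir25 138165321 to 138165404. In GENCODE vM21 all 3 hairpins fall in intron 13 of the 14 introns of a coding Mcm7 transcript, which runs from 138165162 to 138165909. The Mir93 and Mir25 hairpins also overlap an exon of another Mcm7 transcript, annotated as one with a retained intron. The hairpins together span 498 bases, with 126 bases between Mir106b and Mir93 and 118 bases between Mir93 and Mir25. The precursors are shown because the arms are compared within each of them; the capitals mark the 5p arm and then the 3p arm.
Mir106b: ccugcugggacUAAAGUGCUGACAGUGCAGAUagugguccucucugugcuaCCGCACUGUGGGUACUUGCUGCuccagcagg
Mir93: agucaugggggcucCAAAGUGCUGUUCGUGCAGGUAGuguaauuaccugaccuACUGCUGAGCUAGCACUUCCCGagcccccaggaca
Mir25: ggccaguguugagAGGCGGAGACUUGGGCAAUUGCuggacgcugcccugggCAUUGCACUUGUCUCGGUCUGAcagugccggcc
None of the 6 mature rows shares bases with an entry on the opposite strand, which 106 other rows of the table do.

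Library totals were 4577668 and 7638663 counts in WT replicates 1 and 2, and 6901394 and 7350345 in damaged replicates 1 and 2. Levels are given as CPM, the count scaled to a common library size and adjusted by TMM, edgeR's correction for library composition. A count of 0 allows up to 3 counts, or 0.393 to 0.655 CPM. CPM are relative values, so fewer vesicles carrying a miRNA and fewer copies of it in each vesicle cannot be told apart. Muscle miRNAs, the markers of the labelled cell type, took 29.5% and 33.4% of the WT counts and 35.5% and 38.1% of the damaged counts. Of their 12 rows, miR-1a-2-5p and miR-1a-2-3p were at 0, and both share bases with an entry on the opposite strand. Rows suspected to hold fragments of other RNAs, of which 11 of 13 had counts and miR-690 and miR-2861 were at 0, took 0.176% and 0.275% of the WT counts and 0.631% and 0.682% of the damaged counts. Neural miRNAs, with 9 of 24 rows above 0, took 0.0780% and 0.0930% of the WT counts and 0.137% and 0.178% of the damaged counts. Every miR-9 and miR-219a row was at 0, as were miR-124a-1-5p, miR-124a-1-3p, miR-124a-2-5p, miR-124a-3-5p and miR-124a-3-3p. Blood miRNAs took 0.148% to 0.173% of the counts with overlapping groups, epithelial miRNAs at most 0.00132%, and both endothelial rows, which share bases with opposite-strand entries, were at 0. Of the 15 neural rows at 0, 11 share bases with an opposite-strand entry, as do all 3 blood rows at 0. The part of the muscle, fragment and neural shifts in the results below was not tested.

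The cluster as a whole took a smaller share of the counts in vesicles from peroxide-treated cells. The 6 rows together held 0.348% of the counts in WT replicate 1 and 0.323% in WT replicate 2. They held 0.184% in damaged replicate 1 and 0.169% in damaged replicate 2. Exact (Clopper-Pearson) 95% intervals, which cover counting error only, ran from 0.319% to 0.353% over the WT libraries and from 0.166% to 0.187% over the damaged libraries. The mean was 0.335% ± 0.0179 (SD, n = 2) in WT and 0.176% ± 0.0104 (SD, n = 2) in damaged libraries, and the groups did not overlap. The exact permutation test gave a two-sided p of 0.333, the smallest that 2 libraries against 2 can give. When miR-206-3p, a muscle miRNA and the most abundant row, was taken out of the total, the share was 0.488% and 0.479% in WT and 0.278% and 0.266% in damaged libraries, and the groups again did not overlap.

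Of the 6 rows, miR-93-5p and miR-25-3p fell in the damaged libraries at an adjusted p under 0.05 and none rose (edgeR's quasi-likelihood test with Benjamini-Hochberg adjustment over 536 rows). Of all 536 rows tested, 9.51% passed by the same rule, 5.41% falling and 4.1% rising. All 6 rows passed the filter on low counts. Their log2 fold changes, damaged against WT, had a median of -0.99, against 0.02 over all rows tested. In 4 of the 6 rows both damaged libraries lay below both WT libraries, an order that 30.8% of all tested rows showed, and in 1 row both lay above, which 29.1% showed.

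miR-93-5p (MIMAT0000540; chromosome 5, 138165574 to 138165596) was the most abundant product of the cluster and ranked 52 of 2110 rows by mean level. Its counts were 9019 and 12902 in WT and 7752 and 7312 in damaged libraries. Its level was 1997 and 1694 CPM in WT replicates 1 and 2, and 1131 and 972 CPM in damaged replicates 1 and 2. Both damaged libraries were below both WT libraries. The mean fell from 1846 ± 214 CPM (SD, n = 2) to 1052 ± 112 CPM (SD, n = 2). It was 1.75-fold lower, or -0.81 ± 0.15 (SE) as a log2 fold change (edgeR adjusted p = 0.0335). Without any 1 library the log2 fold change was -0.95 to -0.72. Such a fit keeps only 1 library in a group, so it cannot show whether the call needs the library left out.

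miR-25-3p (MIMAT0000652; chromosome 5, 138165332 to 138165353) ranked 64 by mean level. Its counts were 6804 and 11563 in WT and 4794 and 4990 in damaged libraries. The corresponding levels were 1507 and 1518 CPM in WT and 699 and 664 CPM in damaged libraries. The 2 libraries within each group lay close together and the groups did not overlap. The log2 fold change was -1.15 ± 0.12 (SE), or 2.22-fold lower (edgeR adjusted p = 0.00914), and miR-25-3p ranked 8 of the 536 tested rows by p-value. Without any 1 library the log2 fold change of miR-25-3p was -1.23 to -1.12, and these fits have the same limit.

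**Figure D1:**
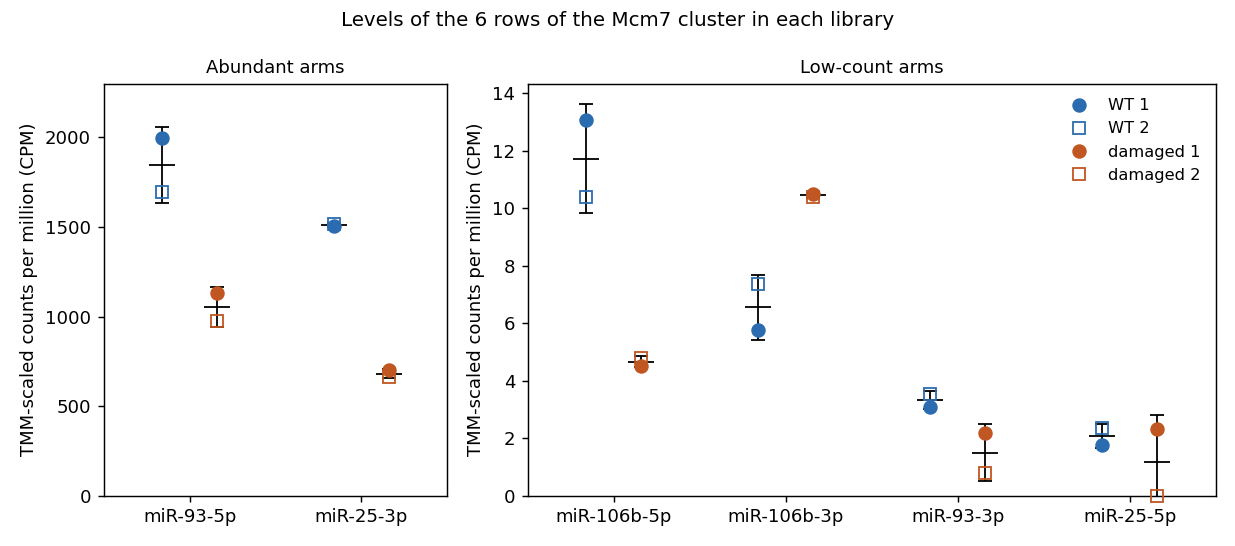
Levels of the 6 rows of the cluster, in TMM-scaled CPM on linear axes starting at 0, with the abundant arms on the left and the low-count arms on the right. Blue marks are the WT libraries, orange marks the damaged libraries, circles replicate 1 and open squares replicate 2; black bars are the mean and SD of 2 libraries. miR-93-5p and miR-25-3p are lower in both damaged libraries, miR-106b-5p is lower and miR-106b-3p higher, and miR-25-5p overlaps.

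The third hairpin, Mir106b, was represented by few reads from either arm. miR-106b-5p (MIMAT0000386; 138165787 to 138165807), the arm usually studied, had 59 and 79 counts in WT and 31 and 36 in damaged libraries. These were 13.1 and 10.4 CPM in WT and 4.52 and 4.79 CPM in damaged libraries. Both damaged libraries were lower, and the log2 fold change of -1.33 ± 0.42 (SE) was the most negative of the 6 rows but did not pass the test (edgeR adjusted p = 0.0977).

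miR-106b-3p (138165746 to 138165767), from the opposite side of the same hairpin, had 26 and 56 counts in WT and 72 and 78 in damaged libraries. These were 5.76 and 7.35 CPM in WT and 10.5 and 10.4 CPM in damaged libraries. It was the 1 row of the cluster with both damaged libraries above both WT libraries. The log2 fold change, 0.66 ± 0.40 (SE), missed the threshold (edgeR adjusted p = 0.331).

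The less abundant arms of Mir93 and Mir25 were near the limit of detection. miR-93-3p (138165536 to 138165557) had 14 and 27 counts in WT and 15 and 6 in damaged libraries, or 3.10 and 3.55 CPM against 2.19 and 0.798 CPM. Its log2 fold change was -1.15 ± 0.89 (SE; edgeR adjusted p = 0.437). miR-25-5p (138165370 to 138165391) had 8 and 18 counts in WT and 16 and 0 in damaged libraries, or 1.77 and 2.36 CPM against 2.33 and 0 CPM. The groups overlapped for miR-25-5p, damaged replicate 2 being at 0 with a limit of 0.408 CPM, and the log2 fold change was -0.83 ± 1.66 (SE; edgeR adjusted p = 0.820).

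The mature miRNAs are 21 to 23 bases long, so their CPM can be set side by side without scaling by length. Whether different sequences were captured equally in the libraries was not tested, so the order and ratios below describe reads only. In WT libraries the order of the mean levels was miR-93-5p, miR-25-3p, miR-106b-5p, miR-106b-3p, miR-93-3p and miR-25-5p, and no neighbours in that order overlapped. In damaged libraries miR-106b-3p stood above miR-106b-5p, again without overlap, and miR-93-3p and miR-25-5p overlapped. Although the hairpins share a transcript, the counts of miR-93-5p were 153 and 163 times those of miR-106b-5p in WT and 250 and 203 times in damaged libraries. The ratio of the largest to the smallest main product of the cluster was thus higher in both damaged libraries. It rests there on 31 and 36 counts of miR-106b-5p, and the exact permutation p was 0.333, the smallest possible.

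The makeup of the cluster was mostly Mir93 and Mir25. Mir93 gave 56.7% and 52.5% of the cluster's counts in WT and 61.3% and 58.9% in damaged libraries. Mir25 gave 42.8% and 47.0% in WT and 37.9% and 40.2% in damaged libraries. For each count of miR-93-5p there were 0.754 and 0.896 counts of miR-25-3p in WT, and 0.618 and 0.682 in damaged libraries. The damaged libraries thus held less miR-25-3p relative to miR-93-5p, with means of 0.825 ± 0.100 (SD, n = 2) and 0.650 ± 0.0453 (SD, n = 2) and no overlap. The exact permutation p was 0.333, the smallest possible.

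Mir106b gave 0.534% and 0.548% of the cluster's counts in WT and 0.812% and 0.918% in damaged libraries. This larger share came from the 3p arm. With only the main arms counted (miR-106b-5p, miR-93-5p and miR-25-3p), the share of miR-106b-5p went the other way, from 0.347% ± 0.0351 (SD, n = 2) to 0.269% ± 0.0320 (SD, n = 2).

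Within the Mir106b hairpin, printed with both arms in capitals, the arm with more reads differed between the groups. miR-106b-3p made up 30.6% (exact 95% interval 21.0% to 41.5%) of the hairpin's counts in WT replicate 1 and 41.5% (33.1% to 50.3%) in WT replicate 2. It made up 69.9% (60.1% to 78.5%) in damaged replicate 1 and 68.4% (59.1% to 76.8%) in damaged replicate 2. The 5p arm was thus the larger in the WT libraries and the 3p arm in the damaged libraries. No WT interval met a damaged interval, but these intervals cover counting error only and not the spread between libraries. The means were 36.0% ± 7.70 (SD, n = 2) and 69.2% ± 1.05 (SD, n = 2), with an exact permutation p of 0.333, the smallest possible.

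A test of arm usage, added after these values were seen, compared the change of the 3p arm with that of the 5p arm in every hairpin with both arms tested. Of 151 hairpins 0 passed at an adjusted p under 0.05, or 0%, and 18 had an unadjusted p under 0.05 (edgeR). For Mir106b the change of the 3p arm exceeded that of the 5p arm by 1.99 ± 0.62 (SE) on the log2 scale, with an unadjusted p of 0.0326 and an adjusted p of 0.389 (edgeR). An earlier version of this test, with edgeR's diffSpliceDGE, called 1 other hairpin and gave Mir106b an unadjusted p of 0.105 and an adjusted p of 1.00. The difference between the arms of Mir106b therefore did not pass a test over all hairpins by either method.

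The other 2 hairpins stayed with 1 dominant arm in all 4 libraries. miR-93-3p was 0.155% and 0.209% of the Mir93 counts in WT and 0.193% and 0.0820% in damaged libraries. miR-25-5p was 0.117% and 0.155% of the Mir25 counts in WT, 0.333% in damaged replicate 1 and 0 of 4990 counts in damaged replicate 2. The groups overlapped for both hairpins, and the log2 differences between the arms' changes were -0.44 ± 0.57 (SE; edgeR adjusted p = 0.789) for Mir93 and 0.02 ± 0.78 (SE; edgeR adjusted p = 0.989) for Mir25.

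**Figure D2:**
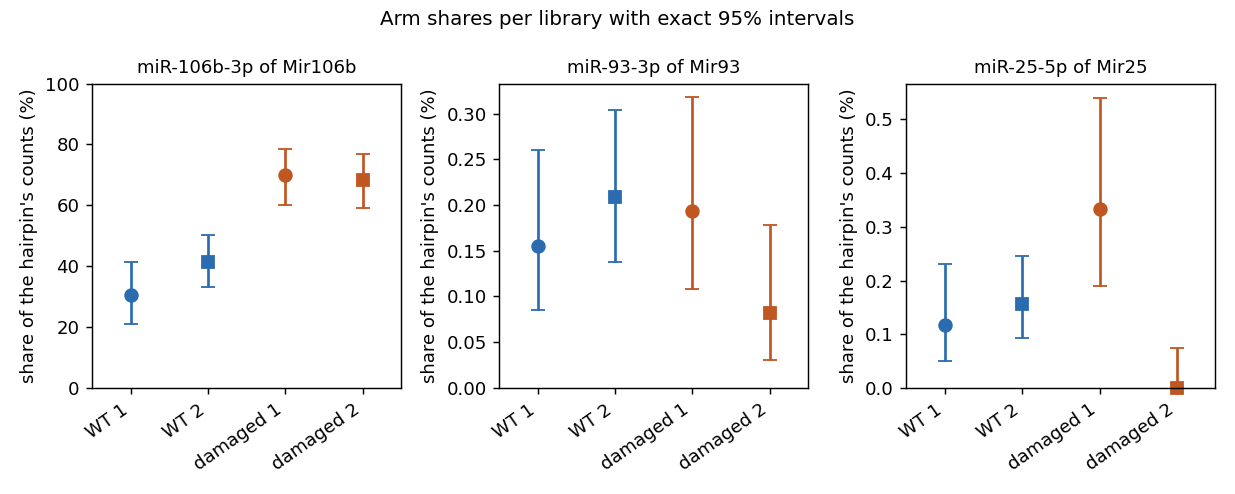
Share of each hairpin's counts held by the arm named above the panel, in percent on axes starting at 0 that differ in range between panels. Points are single libraries, blue for WT and orange for damaged, and bars are exact 95% intervals for counting error. The share of miR-106b-3p is 30.6% and 41.5% in the WT libraries and 69.9% and 68.4% in the damaged libraries, while the other 2 arms stay under 1% of their hairpins.

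Because miRNAs with the same seed bind the same kind of site, the counts of all rows that share a seed were summed. The seed of miR-106b-5p and miR-93-5p is held by 7 rows, of which 6 had counts. Their sum was 2132 and 1827 CPM in WT and 1218 and 1051 CPM in damaged libraries, 1.74-fold lower in the mean with no overlap. miR-93-5p alone made up 93.7% and 92.7% of that sum in WT and 92.8% and 92.6% in damaged libraries. miR-106b-5p made up 0.613% and 0.568% in WT and 0.371% and 0.456% in damaged libraries. In these vesicles the reads of this seed were thus mostly reads of miR-93-5p, and not of miR-17-5p or miR-20a-5p.

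The seed of miR-25-3p is also held by 7 rows, of which 6 had counts. Their sum was 4027 and 4634 CPM in WT and 2207 and 2532 CPM in damaged libraries, 1.83-fold lower in the mean with no overlap. miR-25-3p made up 37.4% and 32.8% of this sum in WT and 31.7% and 26.2% in damaged libraries. The larger part was miR-92a-3p, with 61.4% and 66.2% in WT and 66.3% and 71.6% in damaged libraries. Both sums gave an exact permutation p of 0.333, the smallest possible.

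**Figure D3:**
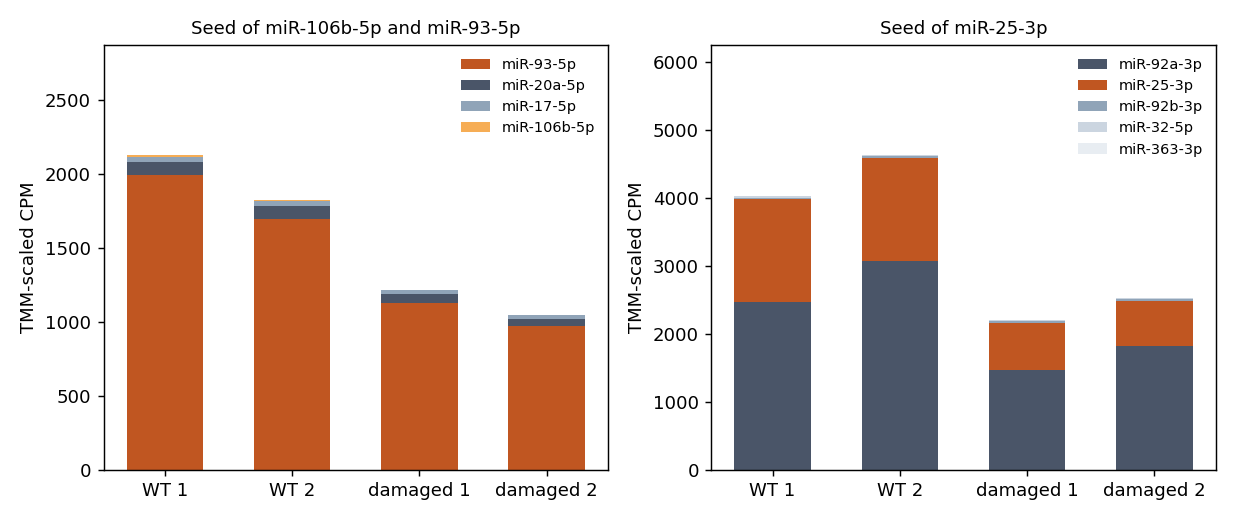
Summed level of the rows that share a seed, in TMM-scaled CPM per library, with 1 bar per library starting at 0 and 1 colour per miRNA; only miRNAs reaching 1 CPM are drawn. The left panel is almost all miR-93-5p (orange), and the right panel is mostly miR-92a-3p (dark grey) with miR-25-3p (orange). Both panels are lower in the damaged libraries.

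The Mir17 cluster on chromosome 14 and the Mir106a cluster on the X chromosome are the known paralogs of the Mcm7 cluster and code for most other miRNAs of these seeds. With rows of the same seeds from other loci they make up 28 rows, of which 14 passed the filter on low counts. Of these 14, 0 passed the edgeR test in either direction, against 9.51% of all tested rows, and 6 had an unadjusted p under 0.05. DESeq2 and limma-voom each called 3 of the 14 lower and 0 higher, where over all 536 rows they called 106 and 79. The log2 fold changes of the 14 had a median of -0.60, against 0.02 over all tested rows. In 8 of the 14 both damaged libraries lay below both WT libraries and in 0 above, orders that 30.8% and 29.1% of all tested rows showed. Of the 14 rows that were not tested, 9 were at 0 in every library: miR-19a-5p, miR-367-3p, miR-363-5p, miR-92a-2-5p, miR-19b-2-5p, miR-20b-3p, miR-18b-3p, miR-106a-3p and miR-6383. The other 5, miR-19b-1-5p, miR-363-3p, miR-20b-5p, miR-18b-5p and miR-106a-5p, reached at most 1.46 CPM in a library.

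Among paralogs with the seed of miR-93-5p, miR-17-5p was at 37.0 and 33.6 CPM in WT and 25.4 and 24.6 CPM in damaged libraries (log2 fold change -0.50 ± 0.24 SE, edgeR adjusted p = 0.229). miR-20a-5p was at 83.7 and 88.2 CPM in WT and 57.3 and 47.9 CPM in damaged libraries (-0.71 ± 0.20 SE, edgeR adjusted p = 0.0800). Both were lower in both damaged libraries without passing the test.

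Among paralogs with the seed of miR-25-3p, the miR-92a-3p row of Mir92-1 was at 2266 and 2849 CPM in WT and 1314 and 1661 CPM in damaged libraries (log2 fold change -0.78 ± 0.18 SE, edgeR adjusted p = 0.0531). The row of Mir92-2 has the same mature sequence, and that sequence alone does not assign a read to either gene copy. The deposited counts were unequal all the same. Mir92-1 had 10232 and 21693 in WT and 9007 and 12492 in damaged libraries. Mir92-2 had 927 and 1666 in WT and 1021 and 1145 in damaged libraries. The cause of this split was not tested. The Mir92-2 row was at 205 and 219 CPM in WT and 149 and 152 CPM in damaged libraries (-0.49 ± 0.15 SE, edgeR adjusted p = 0.0931). With the rows summed, the log2 fold change of miR-92a-3p was -0.74 and did not pass (edgeR adjusted p = 0.0703). The call of the Mir92-1 row depended on the method, passing in 7 of 12 other settings with all 4 libraries, and the Mir92-2 row passed in 0 of 12. miR-92b-3p, from a hairpin on chromosome 3, was at 27.9 and 28.9 CPM in WT and 26.5 and 31.0 CPM in damaged libraries (0.02 ± 0.25 SE, edgeR adjusted p = 0.981). miR-32-5p, from a hairpin on chromosome 4, was at 19.9 and 18.8 CPM in WT and 18.2 and 23.1 CPM in damaged libraries (0.10 ± 0.29 SE, edgeR adjusted p = 0.893). These 2 relatives outside the polycistrons overlapped between the groups, and the sign of miR-92b-3p turned under upper-quartile scaling and with the GC correction; their difference from miR-25-3p was not tested.

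The remaining tested products of the paralogous polycistrons carry other seeds. miR-19b-3p was lower in both damaged libraries in both of its rows, with log2 fold changes of -1.18 ± 0.27 (SE; edgeR adjusted p = 0.0531) for Mir19b-1 and -1.37 ± 0.33 (SE; edgeR adjusted p = 0.0544) for Mir19b-2. The mature sequence of the rows is the same, and with the rows summed the log2 fold change was -1.26 and passed the test (edgeR adjusted p = 0.0398). miR-18a-5p (-2.07 ± 0.72 SE) and miR-19a-3p (-2.49 ± 1.07 SE) had edgeR adjusted p of 0.124 and 0.190. In both of these rows the damaged libraries lay below the WT libraries. The rows of miR-17-3p, miR-18a-3p, miR-20a-3p and miR-92a-1-5p, overlapped between the groups.

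**Figure D4:**
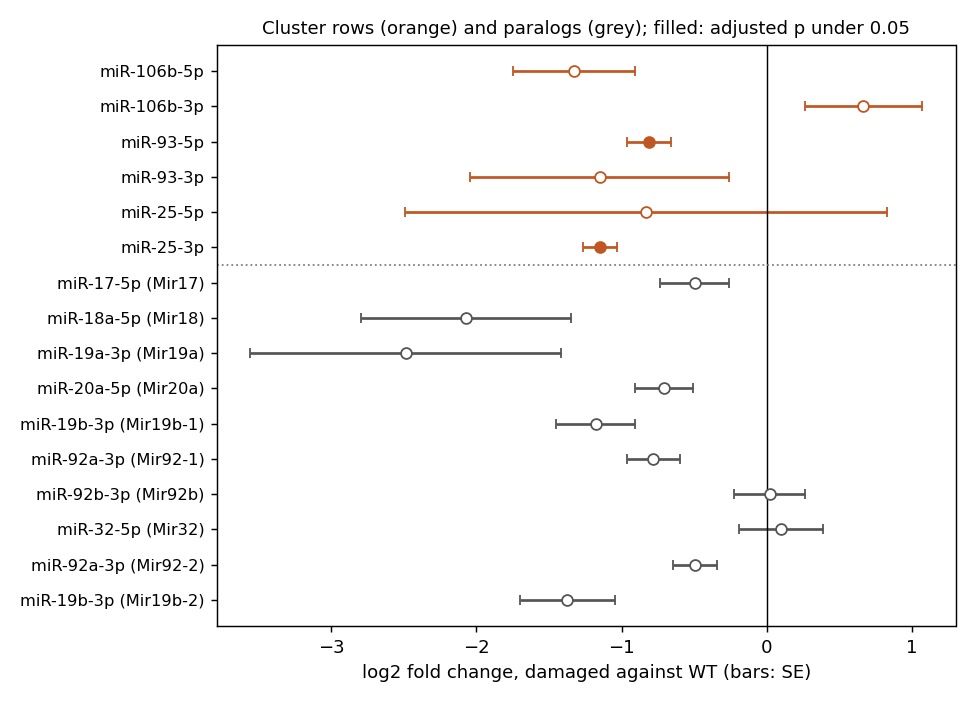
Log2 fold changes, damaged against WT, from edgeR's quasi-likelihood test, with bars of 1 SE; orange points are the 6 rows of the cluster and grey points are paralogs with the hairpin gene in brackets. Filled points passed an adjusted p under 0.05, which only miR-93-5p and miR-25-3p did. miR-106b-3p is the 1 row of the cluster right of 0, and miR-92b-3p and miR-32-5p lie close to 0. Not drawn are the tested paralog rows miR-17-3p (0.08), miR-18a-3p (-0.97), miR-20a-3p (0.18) and miR-92a-1-5p (0.03), which overlapped between the groups.

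A second group of miRNAs within a proliferation gene was set beside the cluster. It was chosen with earlier results of these data known, so its calls are a description only. miR-15b and miR-16-2 lie in an intron of Smc4, which encodes a condensin subunit needed to compact chromosomes in mitosis. miR-15b-5p was at 1036 and 1085 CPM in WT and 368 and 372 CPM in damaged libraries (log2 fold change -1.52 ± 0.12 SE, edgeR adjusted p = 0.00914). Without any 1 library the log2 fold change of miR-15b-5p was -1.63 to -1.46. The difference between miR-15b-5p and miR-25-3p was not tested. miR-16-5p counted at Mir16-2, whose mature sequence a hairpin elsewhere also yields, was at 1291 and 1264 CPM in WT and 811 and 1142 CPM in damaged libraries (-0.39 ± 0.19 SE, edgeR adjusted p = 0.238). miR-15b-3p was at 75.7 and 130.3 CPM in WT and 44.9 and 51.1 CPM in damaged libraries (-1.10 ± 0.31 SE, edgeR adjusted p = 0.0774), and passed in 5 of 12 other settings with all 4 libraries. miR-16-2-3p was at 0.221 and 2.50 CPM in WT and 0.729 and 3.59 CPM in damaged libraries (0.62 ± 1.38 SE, edgeR adjusted p = 0.839). Of the 4 rows of this intron, 1 passed the test and fell, against 5.41% of all tested rows.

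The rows most like the cluster were ranked by the Euclidean distance between their log2 CPM, centred on each row's mean over the 4 libraries, and the mean centred profile of miR-106b-5p, miR-93-5p and miR-25-3p. Over 530 rows the median distance was 1.41. The nearest were miR-351-5p at 0.129, miR-182-5p at 0.204, miR-467e-5p at 0.210, miR-210-3p at 0.234 and miR-218-5p of Mir218-2 at 0.245. miR-25-3p itself was at 0.156, miR-106b-5p at 0.241 and miR-93-5p at 0.288. These 3 rows make up the mean profile, which shortens their distances, so they cannot be set directly against those of other rows. miR-106b-3p, which is not part of that mean, was at 1.77.

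The levels of miR-351-5p, an X-linked miRNA, were 622 and 594 CPM in WT and 273 and 281 CPM in damaged libraries. For miR-210-3p, a known product of the hypoxia response, they were 229 and 219 CPM in WT and 129 and 117 CPM in damaged libraries. The log2 fold changes of the 5 nearest rows ran from -1.13 to -0.86, inside the range of the 3 main arms, and likeness over 4 libraries mostly reflects this fall. No more than the size and evenness of the change is described by this ranking.

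**Figure D5:**
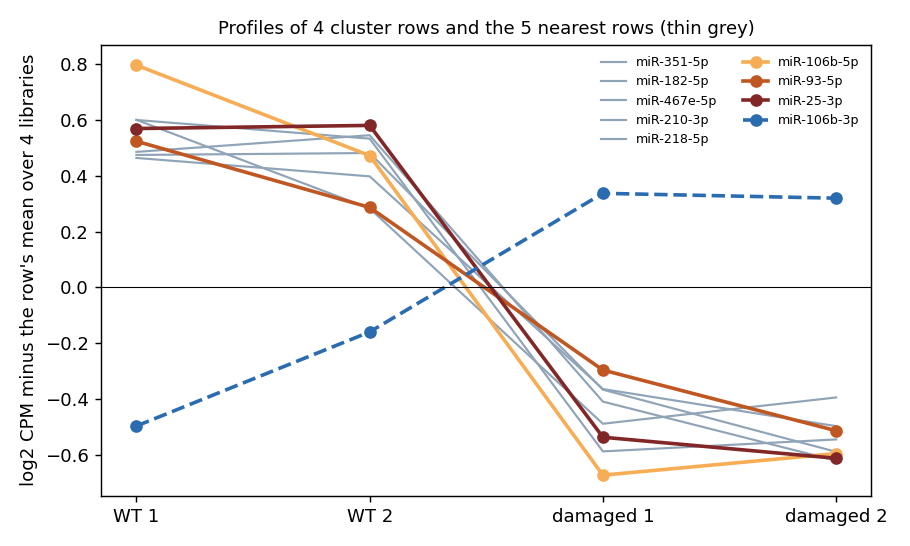
Centred log2 CPM of 4 rows of the cluster (thick lines with points) and of the 5 nearest rows (thin grey lines) in each library; lines join libraries to guide the eye only. The main arms and the grey rows are above 0 in both WT libraries and below 0 in both damaged libraries, and miR-106b-3p (dashed blue) runs the other way.

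The promoter of Mcm7 was searched because the cluster is read from it. The letters searched were TTTCCCGC, TTTCGCGC, TTTGCCGC and TTTGGCGC, which spell the E2F consensus, on both strands of windows from 250 bases before to 50 bases after each RefSeq gene start. Of 32851 such windows, 744 held a match, or 2.26%. One Mcm7 window held 2 matches, shown in capitals on the gene's strand, and both stretches lie on chromosome 5, the first at 138172030 to 138172059 and the second at 138171849 to 138171878.
Mcm7 before the start: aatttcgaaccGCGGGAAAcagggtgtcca
Mcm7 after the start: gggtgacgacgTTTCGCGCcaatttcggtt
The first match begins 165 bases before the RefSeq start of that window and the second 16 bases after it. The annotated Mcm7 gene reaches 138172422, upstream of both matches, so these distances hold for that RefSeq start only. The table counts small RNAs, so neither Mcm7 messenger nor any factor at these letters was measured.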

How the data were processed

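Small-RNA reads of 4 libraries were analysed, 2 WT and 2 damaged. The authors deposited 1 table of raw read counts per mature miRNA. Per the submitters' processing notes it was made with FastQC, BWA and featureCounts on mm10, and per the file headers featureCounts 2.0.1 was run without a strand option. The sources used here give no adapter trimming step, no version of BWA and no release of miRBase. Every count column was matched to a sample by name, and no molecular identifiers are mentioned. Rows were named by position from RefSeq or, failing that, GENCODE vM21 hairpins, within 3 bases on the same strand; 2100 of 2110 received a name.

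Counts were filtered with filterByExpr (minimum count 10), scaled by TMM (factors 0.987 to 1.02) and tested with edgeR 4.0.16 in R 4.3.3 by the quasi-likelihood test with group as the only term. P-values were adjusted over all 536 rows by Benjamini-Hochberg, with a threshold of 0.05. SE is the log2 fold change divided by the root of the F statistic. DESeq2 1.42.0, limma 3.58.1 (voom), other scalings and filters, a GC correction, a replicate block and leaving out each library were alternatives. Scripts were tested on simulated data. The text names all rows of the cluster and of the paralog list, the Smc4 rows and the 5 nearest profiles. The members and lists were chosen with earlier results of these data known. Libraries of 1 group differed by more than counting noise (chi-square per degree of freedom 109 in WT and 204 in damaged libraries), so none was treated as a library deposited again; this does not show that they are separate cultures.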

Additional observations from a re-analysis of the deposited data

How the results depend on the processing

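The count of called rows moved most: 51 became 77 with upper-quartile scaling, 131 with no filter, 91 with at least 10 CPM in 2 libraries, 106 with DESeq2 and 79 with limma-voom, and without 1 library it ran from 0 to 30. It was 0 without either WT library or without damaged replicate 1; with WT replicate 1, WT replicate 2 and damaged replicate 1 left out in turn, 103, 124 and 144 rows had an unadjusted edgeR p under 0.05. miR-93-5p and miR-25-3p passed in all 12 other settings with 4 libraries. Without 1 library, the log2 fold change of miR-93-5p ran from -0.95 to -0.72 and that of miR-25-3p from -1.23 to -1.12. miR-106b-5p and miR-106b-3p passed in no setting; the lowest adjusted p of miR-106b-5p was 0.0519. Without miR-206-3p in the total, the cluster's share differed by -0.211 percentage points. Counting main arms only turned the difference of Mir106b within the cluster to -0.0775 percentage points. Without 1 library, the arm share of miR-93-3p differed by -0.0999 to 0.0112 percentage points, that of miR-25-5p by -0.136 to 0.196, and the log2 fold change of miR-25-5p was -6.79 to 0.16. Signs of low or flat paralogs turned as well, and the causes were not tested. miR-17-3p was -0.19 with limma-voom, -0.26 with the block, -0.27 with the block and GC correction, and -1.54 to 0.80 without 1 library. miR-92b-3p was -0.047 with upper-quartile scaling, -0.081 with the GC correction, -0.084 with it and the block, and -0.11 to 0.10 without 1 library. Without 1 library the ranges were -1.91 to 1.94 for miR-18a-3p, -0.28 to 0.78 for miR-20a-3p, -0.79 to 0.74 for miR-92a-1-5p, -0.094 to 0.23 for miR-32-5p and -0.92 to 3.21 for miR-16-2-3p. The arm difference ran from -1.13 to 0.089 for Mir93 and from -1.27 to 5.58 for Mir25 without 1 library, and was -0.32 for Mir25 with diffSpliceDGE. For Mir106b it was 1.80 with the GC correction (edgeR adjusted p = 0.395) and 1.66 to 2.34 without 1 library. miR-467e-5p lost its call with the GC correction.

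A block by replicate number raised the calls to 127, and to 132 with the GC correction. Deviations of same-numbered libraries correlated at -0.0441 over 159 rows. The labels state no pairing, and with 2 libraries per group this value cannot show whether same-numbered libraries shared a culture or a preparation. With the block, miR-93-5p and miR-25-3p passed and the other 4 rows of the cluster did not. miR-93-3p and miR-25-5p rest on 0 to 27 counts a library, and the part of depth in their spread was not tested.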
